A study of Mus musculus with 5 samples.

Results

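Transcripts of 10 genes of MHC class I antigen presentation were compared between mature CD8 single-positive thymocytes of mice with a changed Runx3 allele and those of wild-type mice. The genes were taken by symbol from the count tables, and all 10 had a row among the 35976 rows and passed the filter on low counts that left 13666 genes. They are the classical heavy chains H2-K1 and H2-D1, the Qa-2 heavy chains H2-Q6 and H2-Q7, the heavy chains H2-T22 and H2-T23 of the T region, the light chain B2m, the peptide transporter subunits Tap1 and Tap2, and the transactivator Nlrc5. There were 3 libraries of genotype Runx3 +/WRPW, with 1 copy of an allele named WRPW beside a wild-type copy, and 2 of genotype Runx3 +/+. All 5 came from thymus cells purified by flow sorting as mature CD8 single-positive, and the labels give no age, strain or further treatment and do not say whether the libraries of a genotype came from separate mice. The p-values therefore measure only the spread between these libraries, which may be technical.

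A class I molecule is a heavy chain bound to beta-2-microglobulin and a short peptide. Peptides cut in the cytosol are pumped into the endoplasmic reticulum by the TAP1-TAP2 transporter and loaded there with the help of tapasin and other chaperones. NLRC5 is the coactivator that drives class I heavy chain, B2m and Tap1 promoters in lymphocytes. In the thymus, double-positive cells carry little class I on their surface and the level rises after positive selection, so that class I is used with CD69 to stage single-positive cells, and Qa-2 appears late. The comparison asked whether the class I genes, as a readout of maturity, differed when 1 of the Runx3 alleles was WRPW. Such staging reads surface protein, whereas transcripts were counted here. All cells had already been sorted as mature, and a sort on class I or CD69 would narrow any difference in them beforehand. How far the sort did so was not tested.

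None of the 10 genes passed the test, with 0 higher and 0 lower in Runx3 +/WRPW by edgeR's quasi-likelihood test at an adjusted p under 0.05. Of all genes tested 13.6% passed, 6.24% higher and 7.33% lower. At an unadjusted p under 0.05 there was 1, Nlrc5, against 29.8% of all genes. DESeq2 and limma-voom also called 0 of the 10, with 1 and 2 at an unadjusted p under 0.05. The fitted change was upward for 7 of the 10 and downward for the other 3, with a median log2 fold change of 0.25 against 0.02 over all genes tested. The median size regardless of sign was 0.25, against 0.22 over all genes. In 3 genes (H2-K1, H2-Q6 and Nlrc5) every Runx3 +/WRPW library was above both Runx3 +/+ libraries, against 24.7% of all genes that stood apart in that direction and 48.5% in either. The 10 genes took 0.903% to 1.10% of all counts in the Runx3 +/WRPW libraries and 0.840% and 0.943% in the Runx3 +/+ libraries. In bulk samples fewer cells of a type and less RNA per cell cannot be told apart.

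Total counts ran from 15715242 to 43758550. Runx3 +/WRPW library 2 had a count at 27414 genes, against 17237 to 18967 in the other 4 libraries. Levels are counts scaled to library size with TMM factors (CPM). Transcripts of Runx3 were at 394, 341 and 422 CPM in Runx3 +/WRPW libraries 1, 2 and 3, and at 273 and 357 CPM in Runx3 +/+ libraries 1 and 2 (edgeR adjusted p = 0.234), which does not show the allele. A list of 6 T cell markers summed to 6037 to 6714 CPM in Runx3 +/WRPW and 7079 to 7095 CPM in Runx3 +/+. Lists for B cells, dendritic cells, macrophages, thymic epithelium, natural killer cells and erythroid cells each summed to at most 13.9 CPM in any library. Some of these markers, though not all, stood out in Runx3 +/WRPW library 2. Raw counts of Foxn1, of thymic epithelium, were 1, 75 and 1 in Runx3 +/WRPW and 0 and 0 in Runx3 +/+. Those of Flt3, of dendritic cells, were 5, 97 and 5, and 4 and 2. The double-positive thymocyte list summed to 29.9 to 35.3 CPM in Runx3 +/WRPW and 44.3 to 49.1 CPM in Runx3 +/+. Most of the level was Cd1d1, which did not pass (edgeR adjusted p = 0.252). Of its 4 genes tested, 1 was lower and 3 did not pass, and 1 of the 4 had a positive value. The lower gene was Dntt, at 5.26, 2.18 and 2.53 CPM in Runx3 +/WRPW, against 12.7 and 11.8 CPM in Runx3 +/+ (log2 fold change -1.84 ± 0.37, edgeR adjusted p = 0.0280).

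At several genes of the Q and T loci of the MHC the libraries parted in a way that crossed the genotypes. H2-Q5, a neighbour of H2-Q6 that GENCODE calls a polymorphic pseudogene, was at 1.28 CPM in Runx3 +/WRPW library 1 and 34.7 and 38.3 CPM in libraries 2 and 3, and at 32.6 CPM in Runx3 +/+ library 1 and 0.560 CPM in library 2. So 1 library of each genotype was near 0 at this gene. These libraries, Runx3 +/WRPW 1 and Runx3 +/+ 2, also had the lowest levels of H2-T22 and the smallest share of H2-Q6 among the counts of H2-Q6 and H2-Q7, and both had more H2-Q7 and H2-Q4 than the other 3. The cause of that split was not tested. The labels give no strain or MHC haplotype, and whether all libraries share 1 haplotype, which bears on what heavy chain counts against the mm10 reference mean, was not tested either.

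The level of each gene, per kilobase of exon, put the light chain above every heavy chain. B2m was at 2452 ± 171 CPM per kilobase in Runx3 +/WRPW and 2572 ± 38.8 in Runx3 +/+ (SD, n = 3 and n = 2, here and in the following levels). H2-D1 followed at 1331 ± 228 and 1256 ± 338 CPM per kilobase, and H2-K1 at 657 ± 114 and 544 ± 12.8. The transporter and transactivator genes were lower, with Tap2 at a mean of 128 in both and a range of 125 to 131 over the 5 libraries, Tap1 at 91.9 ± 7.52 and 96.1 ± 5.18, and Nlrc5 at 94.3 ± 7.73 and 79.3 ± 7.50. The nonclassical heavy chains among the chosen genes came last, with H2-Q6 at 57.0 ± 4.36 and 28.8 ± 21.5 and H2-Q7 at 37.1 ± 17.5 and 31.2 ± 13.5. H2-T22 was at 33.0 ± 21.2 and 20.6 ± 14.7, and H2-T23 at 23.3 ± 2.94 and 19.4 ± 6.31. H2-Q4, a Q-region heavy chain that is not part of this order, had means of 669 CPM in Runx3 +/WRPW and 652 CPM in Runx3 +/+ over 2596 bases of exon. Over the 5 libraries the ranges of neighbours in this order did not overlap down to Tap2 and Tap1, nor between Nlrc5 and H2-Q6, while those of Tap1 and Nlrc5, and of the last 4 genes with their neighbours, did. The order of the means was the same with the length of the longest transcript in place of all exons.

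Promoter sequence is shown for 5 heavy chains and B2m because the classical and Qa-2 genes are similar there. Of the distinct 50-base stretches of GENCODE transcripts, 9.63% of those of H2-K1 and 12.8% of those of H2-D1 also occurred in another gene's transcripts. Each line below is a window of 150 bases from RefSeq (GRCm38.p6), 5′ to 3′ on the gene's strand, that ends 5 bases after the CCAAT box nearest to the start site. Capitals mark matches on either strand to the CCAAT box of NF-Y (CCAAT), a CRE half-site (TGACG), the palindromic kappaB element (GGGGA and TCCCC 1 base apart) and an IRF element (AAGTGAAA).
H2-K1 (chr17:34000330-34000479, minus strand): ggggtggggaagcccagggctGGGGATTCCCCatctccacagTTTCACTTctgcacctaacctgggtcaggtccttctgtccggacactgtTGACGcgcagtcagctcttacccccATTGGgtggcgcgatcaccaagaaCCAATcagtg
H2-D1 (chr17:35262901-35263050, plus strand): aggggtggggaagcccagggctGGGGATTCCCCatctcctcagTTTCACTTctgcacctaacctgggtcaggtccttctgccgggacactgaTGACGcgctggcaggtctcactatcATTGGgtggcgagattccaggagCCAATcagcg
H2-Q6 (chr17:35424655-35424804, plus strand): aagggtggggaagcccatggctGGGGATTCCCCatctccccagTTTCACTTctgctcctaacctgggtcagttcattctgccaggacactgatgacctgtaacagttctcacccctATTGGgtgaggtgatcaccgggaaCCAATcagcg
H2-Q7 (chr17:35438999-35439148, plus strand): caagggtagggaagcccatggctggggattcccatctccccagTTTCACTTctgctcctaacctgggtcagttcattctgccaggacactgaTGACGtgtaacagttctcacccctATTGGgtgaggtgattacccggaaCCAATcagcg
H2-T22 (chr17:36042796-36042945, minus strand): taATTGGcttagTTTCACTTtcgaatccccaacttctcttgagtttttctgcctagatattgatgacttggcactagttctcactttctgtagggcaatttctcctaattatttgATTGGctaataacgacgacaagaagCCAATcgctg
B2m (chr2:122147494-122147643, plus strand): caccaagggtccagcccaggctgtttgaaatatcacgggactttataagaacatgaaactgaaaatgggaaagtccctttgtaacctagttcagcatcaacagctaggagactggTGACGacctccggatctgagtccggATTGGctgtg
These promoter windows were 96.0% identical between H2-Q6 and H2-Q7 and 88.1% between H2-K1 and H2-D1. Between a classical and a Qa-2 gene they were 82.2% to 83.7% identical, and between H2-K1 and B2m 50.6%. A promoter of 300 bases was at hand for 8 of the 10 genes. All 8 held a CCAAT box, against 37.4% of 32851 mouse promoters, 6 held the CRE half-site (20.8% of all), 5 the IRF element (1.6%) and 3 the kappaB element (0.0487%). The kappaB letters were found in H2-K1, H2-D1 and H2-Q6 and not in the H2-Q7 window. A Runx motif (TGTGGT) was in 0 of the 8 promoters, against 16.8% of all. A match is a description of these letters and not a site of binding.

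The classical heavy chains are the main carriers of peptide for CD8 T cells. H2-K1 (chromosome 17, 33996012 to 34000619, mm10) was at 2308, 1676 and 1806 CPM in Runx3 +/WRPW, against 1571 and 1624 CPM in Runx3 +/+. All 3 Runx3 +/WRPW libraries were above both others, but libraries 2 and 3 only just, and the log2 fold change of 0.27 ± 0.14 (SE, 95% interval -0.07 to 0.61) did not pass edgeR's test (adjusted p = 0.256). Without Runx3 +/WRPW library 1 it was 0.12. H2-D1 (chromosome 17, 35263094 to 35267497) was at 4100, 2996 and 3201 CPM in Runx3 +/WRPW and 2621 and 3855 CPM in Runx3 +/+. The genotypes overlapped, with the highest library of each being Runx3 +/WRPW 1 and Runx3 +/+ 2, and the log2 fold change was 0.08 ± 0.20 (95% interval -0.40 to 0.57, edgeR adjusted p = 0.824). Without Runx3 +/WRPW library 1 the fitted change of H2-D1 was -0.07, and without Runx3 +/+ library 1 it was -0.20. H2-K1 gave 36.0%, 35.9% and 36.1% of the counts of this pair in the Runx3 +/WRPW libraries, and 37.5% and 29.6% in Runx3 +/+ (95% Wilson intervals within 35.5% to 36.4% in Runx3 +/WRPW, and of 37.2% to 37.8% and 29.4% to 29.9% in Runx3 +/+). Such intervals hold the error of counting alone, as PCR copies are not separate molecules.

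Qa-2 is the late marker of thymocyte maturity, a lipid-anchored class I molecule encoded in the Q region. Its other genes H2-Q8 and H2-Q9 had no row among the counts, so the Qa-2 values here rest on H2-Q6 and H2-Q7. Whether reads of H2-Q8 and H2-Q9 were counted under these genes was not tested. H2-Q6 (chromosome 17, 35424850 to 35430055) was at 120, 127 and 109 CPM in Runx3 +/WRPW, against 91.8 and 28.4 CPM in Runx3 +/+. The 3 Runx3 +/WRPW libraries lay close together and above both Runx3 +/+ libraries, of which library 1 was nearer to Runx3 +/WRPW than to Runx3 +/+ library 2. The log2 fold change was 0.99 ± 0.44 (95% interval -0.09 to 2.06, edgeR adjusted p = 0.201). It was 0.36 without Runx3 +/+ library 2, while without Runx3 +/+ library 1 it was 2.02 and passed (edgeR adjusted p = 0.0126). That fit holds a lone Runx3 +/+ library, which is assumed to vary like the other genotype. With any 1 library left out, its edgeR adjusted p lay between 0.0126 and 0.316.

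H2-Q7 (chromosome 17, 35439140 to 35443773) was at 244, 114 and 115 CPM in Runx3 +/WRPW and at 92.0 and 174 CPM in Runx3 +/+. Its highest libraries were those with little H2-Q5, and the genotypes overlapped (log2 fold change 0.25 ± 0.42, 95% interval -0.76 to 1.27, edgeR adjusted p = 0.741). H2-Q6 took 32.9%, 52.7% and 48.6% of the counts of H2-Q6 and H2-Q7 in Runx3 +/WRPW libraries 1, 2 and 3 and 49.9% and 14.1% in Runx3 +/+ libraries 1 and 2, with 95% Wilson intervals no wider than 51.1% to 54.3%. Of the distinct 50-base windows in GENCODE transcripts of H2-Q6, 32.0% also occurred in transcripts of another gene, and 26.4% of those of H2-Q7, so reads of this pair may have been left out or divided by the counting. With their counts put into 1 row, the pair was at 365, 240 and 225 CPM in Runx3 +/WRPW, against 185 and 203 CPM in Runx3 +/+. Every Runx3 +/WRPW library was then above both Runx3 +/+ libraries, and the log2 fold change of 0.51 ± 0.22 (95% interval -0.01 to 1.04) did not pass edgeR's test (adjusted p = 0.175). Without Runx3 +/WRPW library 1 it was 0.27.

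H2-T23 encodes Qa-1, the ligand of the CD94-NKG2A receptor, and H2-T22 a class I-like molecule seen by some gamma-delta T cells. H2-T22 (chromosome 17, 36037128 to 36042742) was at 46.1, 190 and 102 CPM in Runx3 +/WRPW and at 106 and 34.8 CPM in Runx3 +/+. The SD within each genotype, 72.3 and 50.1 CPM, exceeded the difference of the means, 113 and 70.2 CPM, and the genotypes overlapped. Its log2 fold change of 0.67 ± 0.67 had a 95% interval of -0.96 to 2.31 (edgeR adjusted p = 0.561). It was 1.05 without Runx3 +/WRPW library 1, 0.07 without Runx3 +/WRPW library 2, 1.64 without Runx3 +/+ library 1 and 0.06 without Runx3 +/+ library 2, and passed in none of these fits. H2-T22 gave 26.4%, 70.1% and 53.5% of the counts of H2-T22 and its near copy H2-T10 in Runx3 +/WRPW, and 52.4% and 24.3% in Runx3 +/+ (95% Wilson intervals no wider than 52.0% to 55.0%). The transcripts of these genes share 31.2% of the windows of H2-T22. An annotated antisense gene, A930015D03Rik, overlaps 1003 of the 3414 bases of H2-T22 exons. Reads that fall in those stretches cannot be told apart here. H2-T23 (chromosome 17, 36029977 to 36032701) was at 57.6, 73.7 and 70.4 CPM in Runx3 +/WRPW and 68.9 and 43.2 CPM in Runx3 +/+. The genotypes overlapped (log2 fold change 0.26 ± 0.21, 95% interval -0.25 to 0.77, edgeR adjusted p = 0.465), and without Runx3 +/+ library 2 the fitted change was -0.05.

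**Figure D1:**
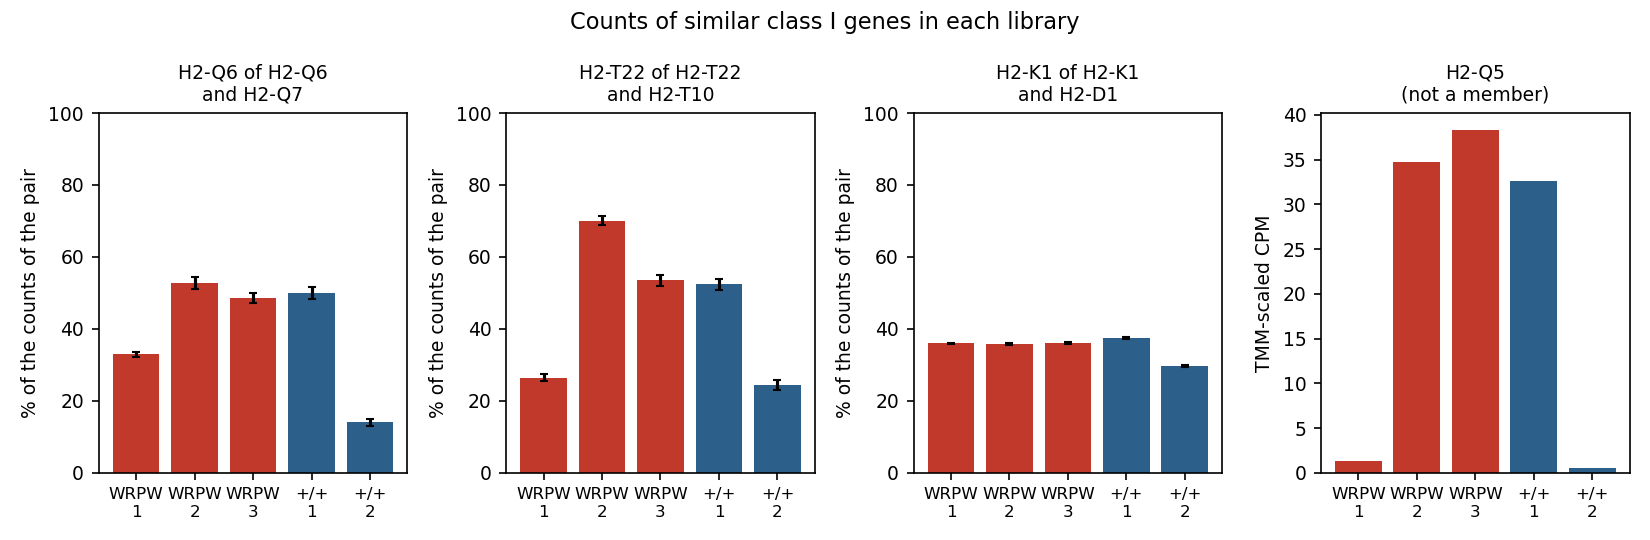
Bars give, for each library (Runx3 +/WRPW in red, Runx3 +/+ in blue), the percent of the counts of 3 gene pairs that fell to the first gene, with 95% Wilson intervals, and the TMM-scaled CPM of H2-Q5. The H2-Q6 and H2-T22 shares were smallest in Runx3 +/WRPW library 1 (32.9% and 26.4%) and Runx3 +/+ library 2 (14.1% and 24.3%), the libraries with 1.28 and 0.560 CPM of H2-Q5.

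The 6 heavy chains together, tested as 1 row, were at 6891, 5132 and 5403 CPM in Runx3 +/WRPW, against 4572 and 5771 CPM in Runx3 +/+. The genotypes overlapped, and the log2 fold change was 0.17 ± 0.16 (95% interval -0.22 to 0.55, edgeR adjusted p = 0.537). H2-K1 and H2-D1 made up 90.2% to 93.2% of these counts in Runx3 +/WRPW and 92.1% and 95.1% in Runx3 +/+. For each B2m count there were 3.12, 2.67 and 2.47 heavy chain counts in Runx3 +/WRPW and 2.04 and 2.63 in Runx3 +/+. These are raw counts without a correction for length, and B2m has 860 bases of exon against 2085 to 4265 in the heavy chains. They are therefore not a ratio of molecules.

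B2m is the invariant light chain without which class I does not reach the surface, and it spanned a narrower range than H2-K1 and H2-D1. B2m (chromosome 2, 122147687 to 122153082) was at 2200, 1939 and 2186 CPM in Runx3 +/WRPW and 2236 and 2188 CPM in Runx3 +/+. The genotypes overlapped, and the log2 fold change of -0.07 ± 0.08 had a 95% interval of -0.26 to 0.12 (edgeR adjusted p = 0.603), which spans folds of 0.838 to 1.08. None of its 50-base transcript windows occurred in another gene's transcripts.

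The transporter subunits were close in all libraries. Tap1 (chromosome 17, 34187556 to 34197225), the first subunit, was at 549, 490 and 470 CPM in Runx3 +/WRPW and 506 and 547 CPM in Runx3 +/+ (log2 fold change -0.07 ± 0.09, 95% interval -0.28 to 0.15, edgeR adjusted p = 0.678), and the genotypes overlapped. Tap2 (chromosome 17, 34204479 to 34216321), its partner, was at 487, 488 and 474 CPM in Runx3 +/WRPW and 472 and 494 CPM in Runx3 +/+. These 5 values overlapped fully, with a log2 fold change of 0.00 ± 0.06 and a 95% interval of -0.15 to 0.15 (edgeR adjusted p = 0.999), or folds of 0.902 to 1.11. Exons of Tap1 overlap those of Psmb9 on the opposite strand by 212 bases, and Tap2 exons overlap the noncoding genes Gm15821 and Gm20496 by 533 and 165 bases.

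Nlrc5 (chromosome 8, 94434335 to 94527272) came nearest to the threshold. It was at 870, 740 and 792 CPM in Runx3 +/WRPW, against 718 and 628 CPM in Runx3 +/+. All 3 Runx3 +/WRPW libraries were above both Runx3 +/+ libraries, with 1.19-fold more transcript in the fit (log2 fold change 0.25 ± 0.10, 95% interval 0.01 to 0.49, edgeR adjusted p = 0.153). Its fitted change was 0.15 to 0.31 in the fits that left out 1 library, and 0.06 without both Runx3 +/WRPW library 1 and Runx3 +/+ library 2.

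**Figure D2:**
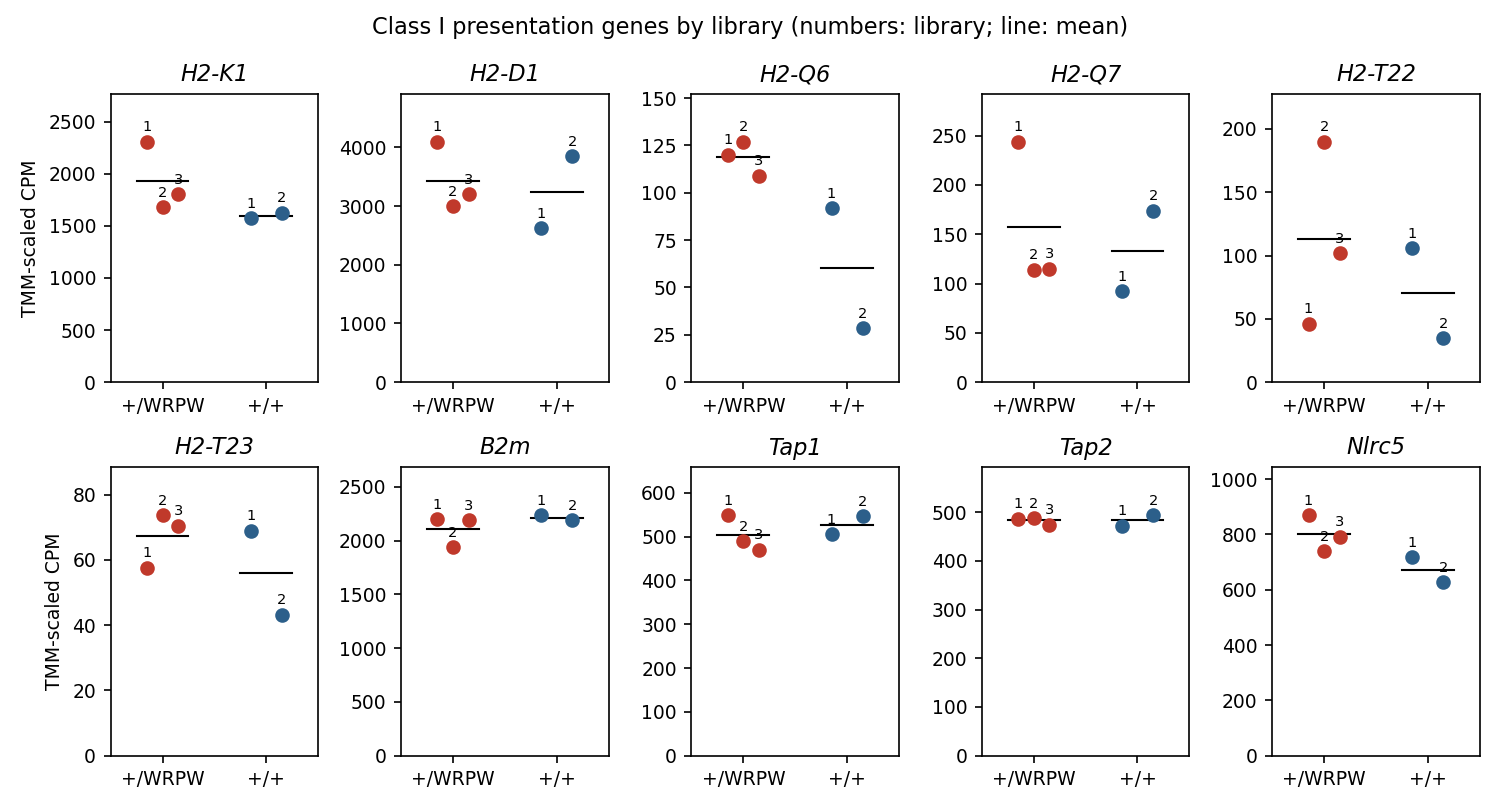
Points give the TMM-scaled CPM of each class I presentation gene in each library, numbered, with Runx3 +/WRPW in red and Runx3 +/+ in blue, and lines the genotype means; every axis starts at 0. Only H2-K1, H2-Q6 and Nlrc5 have all 3 Runx3 +/WRPW libraries above both Runx3 +/+ libraries, and Tap2 stays between 472 and 494 CPM.

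Other heavy chain genes of class I and its relatives were tested from a list of 21, of which 18 had a row and 14 passed the filter. There, 1 rise and 1 fall were called, and 12 did not pass (background 6.24% higher and 7.33% lower). H2-Q10, which encodes a class I molecule known as a secreted product of liver, was at 103, 64.8 and 59.3 CPM in Runx3 +/WRPW, against 34.1 and 28.3 CPM in Runx3 +/+, a rise of 2.44-fold (edgeR adjusted p = 0.0274). It shares 631 windows with H2-Q7, 14.0% of its own, and its call was lost without Runx3 +/+ library 1 (adjusted p = 0.182) or library 2 (adjusted p = 0.304). H2-Q10 also shares 179 windows with H2-K1, which was at 1571 to 2308 CPM over the libraries. The part of shared reads in the rise of H2-Q10 was not tested. H2-T24 was lower, at 85.0, 104 and 97.0 CPM in Runx3 +/WRPW, against 137 and 121 CPM in Runx3 +/+ (log2 fold change -0.44 ± 0.10, edgeR adjusted p = 0.0427). It no longer passed without Runx3 +/WRPW library 1 or 3 (adjusted p = 0.0993 and 0.100) and without Runx3 +/+ library 1 or 2 (adjusted p = 0.231 and 0.156).

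None of the listed genes that make, trim or load the peptides passed, against 13.6% of all genes tested. Of 8 loading and trimming genes 0 passed (median -0.11), and Calr and Hspa5, chaperones of the endoplasmic reticulum, had log2 fold changes of -0.19 and -0.01. Of 5 genes of the immunoproteasome and its PA28 activator 0 passed (median -0.02), among them Psmb8, a catalytic subunit, at 508 ± 26.9 CPM in Runx3 +/WRPW and 481 ± 20.5 CPM in Runx3 +/+ (SD, n = 3 and n = 2). The 3 constitutive catalytic subunits also had 0, with a median of -0.18. Of the 14 factors that act on class I promoters 0 passed (median -0.08), and Nfkb1, a subunit of NF-kappaB, was at 377, 301 and 342 CPM in Runx3 +/WRPW and 391 and 432 CPM in Runx3 +/+ (edgeR adjusted p = 0.152). At an unadjusted p under 0.05 there were 1, 0, 1 and 3 genes in these lists, against 29.8% of all genes tested.

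Genes induced by interferon, which also raises class I, had 0 higher and 2 lower of 20 tested, with a median of -0.18. Over all genes tested 6.24% were higher and 7.33% lower. Oas1a, a sensor of double-stranded RNA, was 1.80-fold lower (edgeR adjusted p = 0.0377) and Usp18, which restrains interferon signalling, 1.30-fold lower (edgeR adjusted p = 0.0345). Without any 1 of the 5 libraries both calls were lost, with adjusted p-values of 0.0618 to 0.385 for Oas1a and 0.0612 to 0.189 for Usp18.

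The class II pathway gave 3 higher and 0 lower of 10 tested, against 6.24% higher and 7.33% lower over all genes. All 3 were subunits of H2-DM, the chaperone that exchanges peptides on class II. H2-DMa was at 126, 141 and 100 CPM in Runx3 +/WRPW, against 47.9 and 25.2 CPM in Runx3 +/+ (log2 fold change 1.75 ± 0.29, edgeR adjusted p = 0.0155). H2-DMb1 was at 7.15, 4.11 and 2.85 CPM in Runx3 +/WRPW, against 1.17 and 0.839 CPM in Runx3 +/+ (edgeR adjusted p = 0.0344), and H2-DMb2 at 7.91, 6.79 and 4.14 CPM, against 1.77 and 0.600 CPM (edgeR adjusted p = 0.0359). The class II chains were near 0 in most libraries, with H2-Aa at 0.200 to 0.828 CPM and H2-Eb1 at 10.8 CPM in Runx3 +/WRPW library 1 and at most 0.690 CPM in the other 4. The call of H2-DMa was lost without Runx3 +/+ library 2 (adjusted p = 0.0839). That of H2-DMb1 was lost without each library but Runx3 +/WRPW 3, and that of H2-DMb2 without each of the 5. The B cell list summed to 3.04 to 5.36 CPM in Runx3 +/WRPW and 9.71 to 9.75 CPM in Runx3 +/+. The dendritic cell list summed to 1.23 to 12.0 CPM in Runx3 +/WRPW and 2.36 to 3.69 CPM in Runx3 +/+. Its genes differed in direction. Raw counts of Itgax were 3, 0 and 3 in Runx3 +/WRPW and 7 and 0 in Runx3 +/+. Those of Flt3 were 5, 97 and 5, and 4 and 2. The part of such cells in the result was not tested.

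Stage markers of thymocyte maturation changed in the same libraries. Their list was chosen with earlier results of these data known. Of 11 markers tested, 8 were lower and 0 higher in Runx3 +/WRPW (background 7.33% lower), with a median of -0.88. Beside them the double-positive list summed to 29.9 to 35.3 CPM in Runx3 +/WRPW and 44.3 to 49.1 CPM in Runx3 +/+. Dntt of that list was lower as well (log2 fold change -1.84 ± 0.37, edgeR adjusted p = 0.0280). The part of that list in the result was not tested. The 8 include genes that rise late, as S1pr1, the receptor for thymic exit (log2 fold change -3.67 ± 0.21, edgeR adjusted p = 0.000890), Itgb7, an integrin chain (-1.85 ± 0.13, edgeR adjusted p = 0.00145), and Klf2, the factor that drives S1pr1 (-2.30 ± 0.27, edgeR adjusted p = 0.00521). The 8 also include genes of recent selection, as Nr4a1 (-1.33 ± 0.16, edgeR adjusted p = 0.00586) and Cd69 (-0.55 ± 0.14, edgeR adjusted p = 0.0495), the marker read beside class I. The late homing gene Ccr7 and the thymic homing receptor Ccr9 passed as well, with log2 fold changes of -0.72 and -0.88. Without Runx3 +/+ library 2 the calls of Klf2, Ccr7, Cd69 and Ccr9 were lost (edgeR adjusted p = 0.0583 to 0.242), and without Runx3 +/+ library 1 those of Ccr7, Cd69 and Ccr9 (0.0782 to 0.277). The call of Ccr9 was also lost without Runx3 +/WRPW library 1 (0.0564), and that of Cd69 without library 2 or 3 (0.0931 and 0.0668). Those of S1pr1, Itgb7 and Nr4a1 held without any 1 library. The other 3 did not pass, and of these Il7r, the receptor chain for interleukin 7, had a positive value. It was at 530, 460 and 544 CPM in Runx3 +/WRPW, against 383 and 226 CPM in Runx3 +/+ (log2 fold change 0.75 ± 0.22, unadjusted p = 0.0142, edgeR adjusted p = 0.0786), with every Runx3 +/WRPW library above both others. The 95% intervals of the class I genes lay above -0.55, the fitted change of Cd69, except those of H2-Q7 and H2-T22, which reached -0.76 and -0.96. Whether the class I genes differ in change from the stage markers was not tested.

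**Figure D3:**
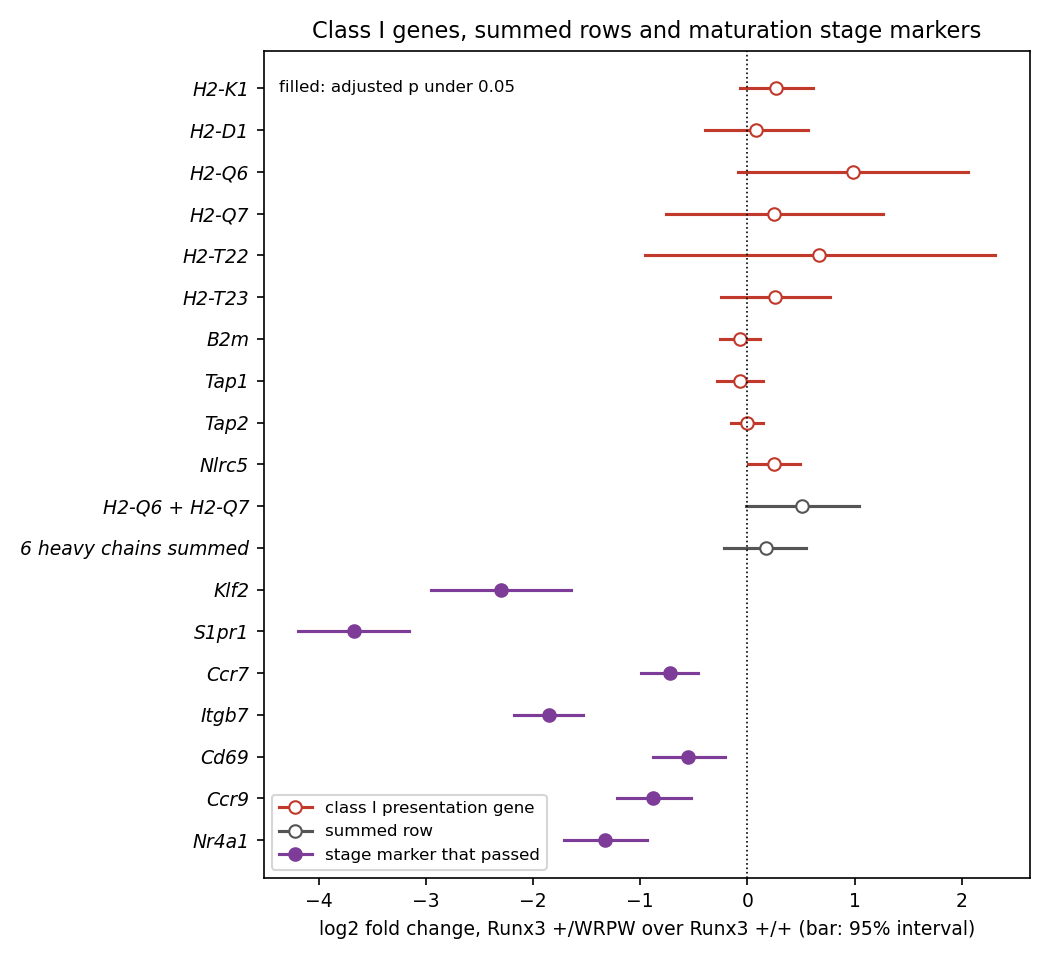
Points give the log2 fold change of Runx3 +/WRPW over Runx3 +/+ and bars its 95% interval, for the class I presentation genes (red), the summed rows (grey) and 7 stage markers that passed (purple, filled). The class I points lie between -0.07 and 0.99 and the stage markers between -3.67 and -0.55.

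**Figure D4:**
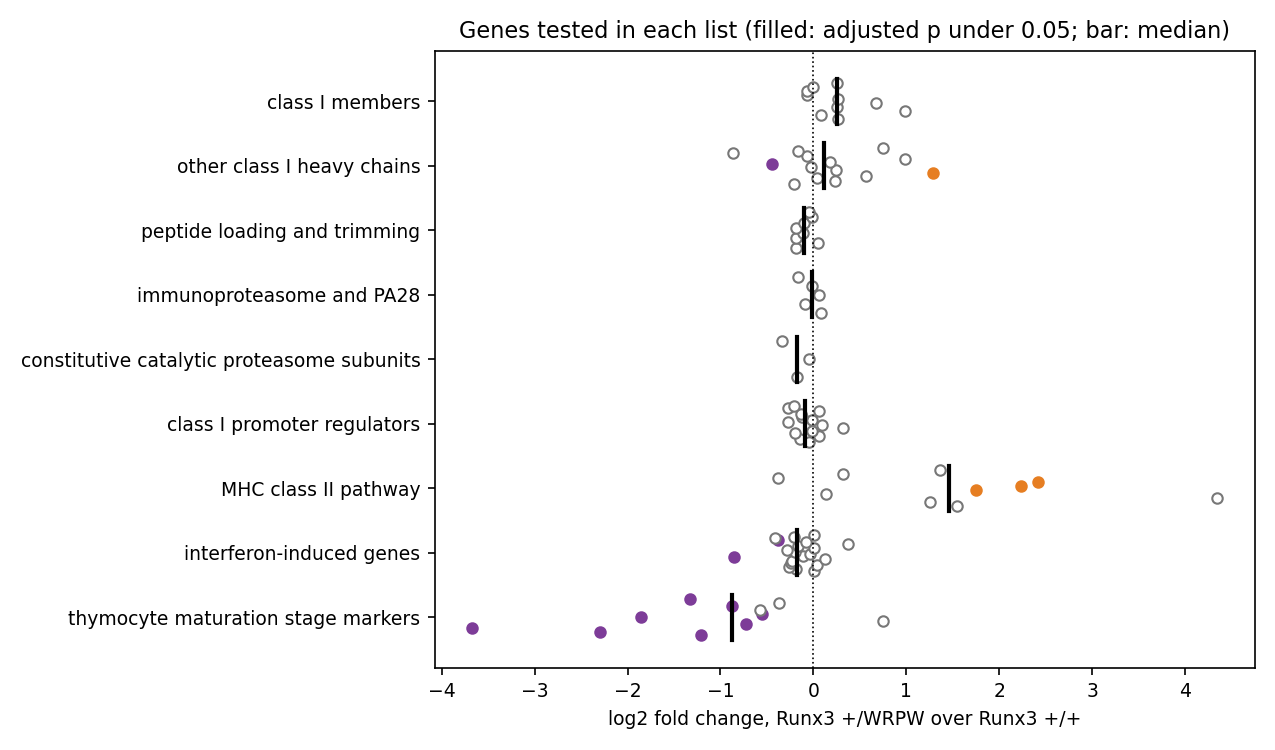
Each point is the log2 fold change of 1 gene tested, by list, filled where the adjusted p was under 0.05 (orange higher, purple lower), and bars are list medians. No class I member is filled, against 3 of 10 class II pathway genes and 8 of 11 stage markers. Over all genes tested 13.6% had an adjusted p under 0.05.

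The mean profile of the 10 genes over the libraries, as log2 CPM centred on each gene's mean, was 0.15, 0.14 and 0.06 in Runx3 +/WRPW and -0.05 and -0.30 in Runx3 +/+. Among other genes tested (mean log2 CPM from 1 upward), the closest profiles were those of the ribosomal protein genes Rps13, Rpl4 and Rplp0, then Pign and Cep164, with root mean square differences of 0.0165 to 0.0225 over the 5 libraries. The profile is low in Runx3 +/+ library 2, where H2-Q6, H2-T22, H2-T23 and Nlrc5 were at their lowest. The other members were not, among them B2m at 2188 CPM and Tap2 at 494 CPM, so the mean does not stand for each member. How often a gene comes this close over so few libraries was not tested, nor was any link to the genes named.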

How the data were processed

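RNA-seq values of 5 libraries were used, 3 Runx3 +/WRPW and 2 Runx3 +/+, grouped by the labels. Each library has 1 deposited file of whole-number read counts by gene symbol, which the authors had not normalized. Per the submitters' processing notes, the tools were featureCounts 2.0.8 and, as named there, HISAT2 2.2.1, cutadapt 4.0 and edgeR 3.36.0, and the genome was mm10. Not given in the sources used here were the annotation, the strand setting and how multi-mapping reads were counted. In the file headers, Runx3 +/+ library 2 is numbered 3 and Runx3 +/WRPW library 2 has only an aligner name; the sample records were followed.

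The genotypes were compared by edgeR 4.0.16 under R 4.3.3 (TMM factors, filterByExpr with a minimum count of 10, glmQLFit, glmQLFTest, Benjamini-Hochberg over 13666 genes, threshold 0.05). Log2 fold changes set Runx3 +/WRPW over Runx3 +/+. Standard errors are the absolute log2 fold change over the square root of F, and the 95% intervals use the t distribution of the fit's degrees of freedom. Levels are TMM-scaled CPM. A count of 3, the floor used here, is 0.0686 to 0.191 CPM per library. Coordinates came from RefSeq GRCm38.p6, the assembly of mm10, and exon lengths and transcripts from GENCODE M21. No library pair agreed within sampling noise (chi-square per gene of at least 15.3). The fit was tested on simulated data.

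The class I genes and the lists were chosen with earlier results of these data known. Named genes are the 10 members, Runx3 and the 5 closest profiles. Of each list they also include up to 4 called genes by smallest p-value, or up to 2 abundant ones as values if none was called. Ccr7, Cd69, Ccr9, Il7r, H2-Q4, H2-Q5, H2-T10, H2-Aa, H2-Eb1, Cd1d1, Dntt and the marker genes given as counts were named after their values were seen. Psmb8, Nfkb1, Calr and Hspa5 stand for lists without a call. Some listed genes are counted but not reported here by name. Alternatives were DESeq2 1.42.0, limma-voom 3.58.1, upper-quartile or RLE factors, 2 other filters, robust dispersion, a replicate block and leaving out libraries.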

Additional observations from a re-analysis of the deposited data

How the results depend on the processing

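No member gene was called with RLE or upper-quartile factors, DESeq2, limma-voom, no low-count filter, robust dispersion, the replicate block or a stricter filter, 1 CPM throughout a genotype; the adjusted p nearest to the threshold was 0.0809, for Nlrc5 in DESeq2. Leaving out 1 library gave 0 to 1 member called, 4 to 11 pathway genes (15 with all libraries) and 277 to 1431 genes in all (1855 with all). The count over all genes was 768, 1431 and 950 without Runx3 +/WRPW library 1, 2 and 3, and 542 and 277 without Runx3 +/+ library 1 and 2, and the pathway count was 8 without Runx3 +/WRPW library 1 and 6 and 4 without the Runx3 +/+ libraries. In these fits the log2 fold change of H2-D1 ran from -0.20 to 0.38, of H2-Q7 from -0.22 to 0.78 and of H2-T23 from -0.05 to 0.60, and that of the 6 heavy chains summed from -0.02 to 0.35. So these 4 changed sign, and none passed. H2-D1 and H2-Q7 stood at -0.07 and -0.22 without Runx3 +/WRPW library 1 and at -0.20 and -0.17 without Runx3 +/+ library 1. Without a low-count filter 28583 genes were tested, of which 1079 were called and 9 of the pathway lists, with a median log2 fold change of 0.70 over all genes. Leaving out both Runx3 +/WRPW library 1 and Runx3 +/+ library 2, chosen after seeing the data, gave 122 genes and 3 pathway genes; the lone Runx3 +/+ library is assumed to vary like the other genotype.

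Among called genes outside the members, H2-T24 and Cd69 were lost with upper-quartile factors (edgeR adjusted p = 0.0653 and 0.0628), Cd69 with robust dispersion (0.0504) and H2-DMb1 with limma-voom (0.0888). Without a low-count filter H2-DMb1, H2-DMb2, H2-T24, Oas1a, Usp18 and Cd69 were lost (0.0626 to 0.146). The call of Dntt was not followed in the alternative fits and is left aside in this section. With both libraries left out, S1pr1 and Itgb7 were the only calls named here that held.

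The labels give both genotypes replicate numbers 1 and 2 without saying whether they mark a shared litter or day, so the numbers were not taken as pairs. Deviations from the genotype means correlated at -0.05 for number 1 and 0.00 for number 2. The deviations of the 2 Runx3 +/+ libraries mirror each other by construction, so these values cannot decide whether the libraries are paired. With the replicate block, in which Runx3 +/WRPW library 3 has a term of its own and adds nothing, 754 genes and 0 members were called, and the calls of H2-T24 (adjusted p = 0.146), Oas1a (0.180), Usp18 (0.108), Ccr7 (0.0614) and Cd69 (0.0580) were lost; no other call of a gene named here was. The lowest count of a member in any library was 711, of H2-Q6 in Runx3 +/+ library 2.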
